A study of Mus musculus with 9 samples.

Results

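The genes described here encode cytosolic and mitochondrial molecular chaperones: the Hsp90, Hsp70, Hsp110, Hsp60 and Hsp10 proteins, the TRiC/CCT ring, small heat shock proteins, J proteins and the transcription factor Hsf1. They were taken by name from the deposited table (names beginning with Hspa, Hspb, Hspd, Hspe, Hsph, Hsp90, Dnaja, Dnajb, Dnajc or Cct with a digit, together with Hsf1, Fkbp4, Ahsa1 and Stip1), without pseudogene names and without 6 chaperones of the endoplasmic reticulum (ER). This gave 82 of 52306 named genes. The name rule also kept J proteins of the ER membrane or lumen, such as Dnajc1, Dnajc10 and Dnajb12, so the group is not purely cytosolic and mitochondrial. The RNA came from 4T1 cells, an epithelial line from a mouse mammary carcinoma, collected on day 2. There were 9 RNA-seq libraries, 3 from cells treated with MK1775 (adavosertib, which inhibits the cell cycle kinase Wee1), 3 from cells labelled as Wee1 siRNA knockdown, and 3 from a negative control, NC. The siRNA libraries are numbered 1 to 3, and the labels do not say whether the numbers mark replicates or different siRNAs; they are treated here as replicates, so their spread may hold a difference between siRNAs. Since NC is labelled only as a negative control, effects of the agents and of a vehicle or transfection cannot be told apart. Neither the MK1775 dose nor any siRNA sequence is given in the sources read. The same 3 NC libraries served both comparisons.

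Chaperones bind unfolded proteins and help them to fold, to cross membranes or to be degraded. Hsp70 works in cycles of ATP hydrolysis that J proteins start and nucleotide exchange factors end, and it hands part of its clients to Hsp90. Hsf1, held inactive in unstressed cells, binds heat shock elements (inverted repeats of the unit GAA spaced by a pair of bases) and raises transcription of many of these genes under stress. Tumour cells often hold high levels of Hsp90 and Hsp70.

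Wee1 itself, the target of both agents, had 15.0, 14.7 and 16.8 FPKM with MK1775 and 13.1, 15.1 and 15.3 FPKM in the libraries labelled Wee1 siRNA, against 11.5, 10.5 and 11.0 FPKM in NC. Every value of the siRNA label lay above every NC value, which goes against a knockdown at the RNA level. An exact two-sided permutation test of 3 against 3 gave p = 0.1 for each group against NC, the smallest value it can give. In the limma fit used for the genes below, Wee1 was higher by 0.46 with MK1775 (limma adjusted p = 0.00226). Under the siRNA label it was higher by 0.37 (limma adjusted p = 0.00633). The group is therefore called the libraries labelled Wee1 siRNA throughout. Epithelial markers (Krt8, Krt18, Epcam and Cdh1, 3 of 4 at 1 FPKM or more) summed to 761 to 779 FPKM with MK1775 and 703 to 712 FPKM under the siRNA label, against 409 to 475 FPKM in NC. Immune markers summed to 5.27 to 7.34 FPKM, 6.24 to 8.17 FPKM and 8.72 to 10.1 FPKM in the same order, with Cd3e and Adgre1 at 0 in all 9 libraries; the part of these shifts in the results below was not tested. In bulk RNA, fewer cells of a kind and less RNA per cell cannot be told apart. On the second principal component NC replicate 1 (13.5) and the siRNA-label replicate 3 (23.0) stood above the other libraries (-12.3 to 3.36). Without these libraries 14 members were higher and 12 lower with MK1775, and 10 were higher and 12 lower under the siRNA label, beside the counts given next.

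Of the 82 members, 62 reached a mean of 1 FPKM over the 9 libraries and were tested, 20 did not, and 3 of those (Dnajb3, Dnajb8 and Dnajc5g) were at 0 everywhere. The untested members, among them the brain or testis genes Hspa12a, Hspa2, Dnajb13 and Dnajc6 and the muscle genes Hspb3 and Hspb7, averaged at most 0.954 FPKM (Dnajb5). FPKM, fragments per kilobase of transcript scaled for the depth of the library, takes account of transcript length, so levels can be compared between genes. Differences are given as log2 differences of mean log2(FPKM + 1), which understate the change of low genes, and a gene was called at a limma adjusted p under 0.05 over all 10453 genes tested. With MK1775, 13 of the 62 were higher (21%; 17.9% of all genes tested) and 15 were lower (24.2%; 23.1% of all genes). Under the siRNA label 13 were higher (21%; 19.6% of all genes) and 12 lower (19.4%; 23.2% of all genes). As a group, then, chaperone genes were called about as often as genes in general. Their median difference was 0.02 with MK1775 and 0.00 under the siRNA label, beside -0.04 and -0.01 over all genes. The values of 34 members did not overlap between MK1775 and NC (23.8% of all genes lay wholly above and 30.1% wholly below), and those of 32 did not overlap between the siRNA label and NC (24.1% above and 28.1% below). Whether the replicates were separate cultures is not in the labels, and the p-values may thus rest on technical spread alone.

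**Figure D1:**
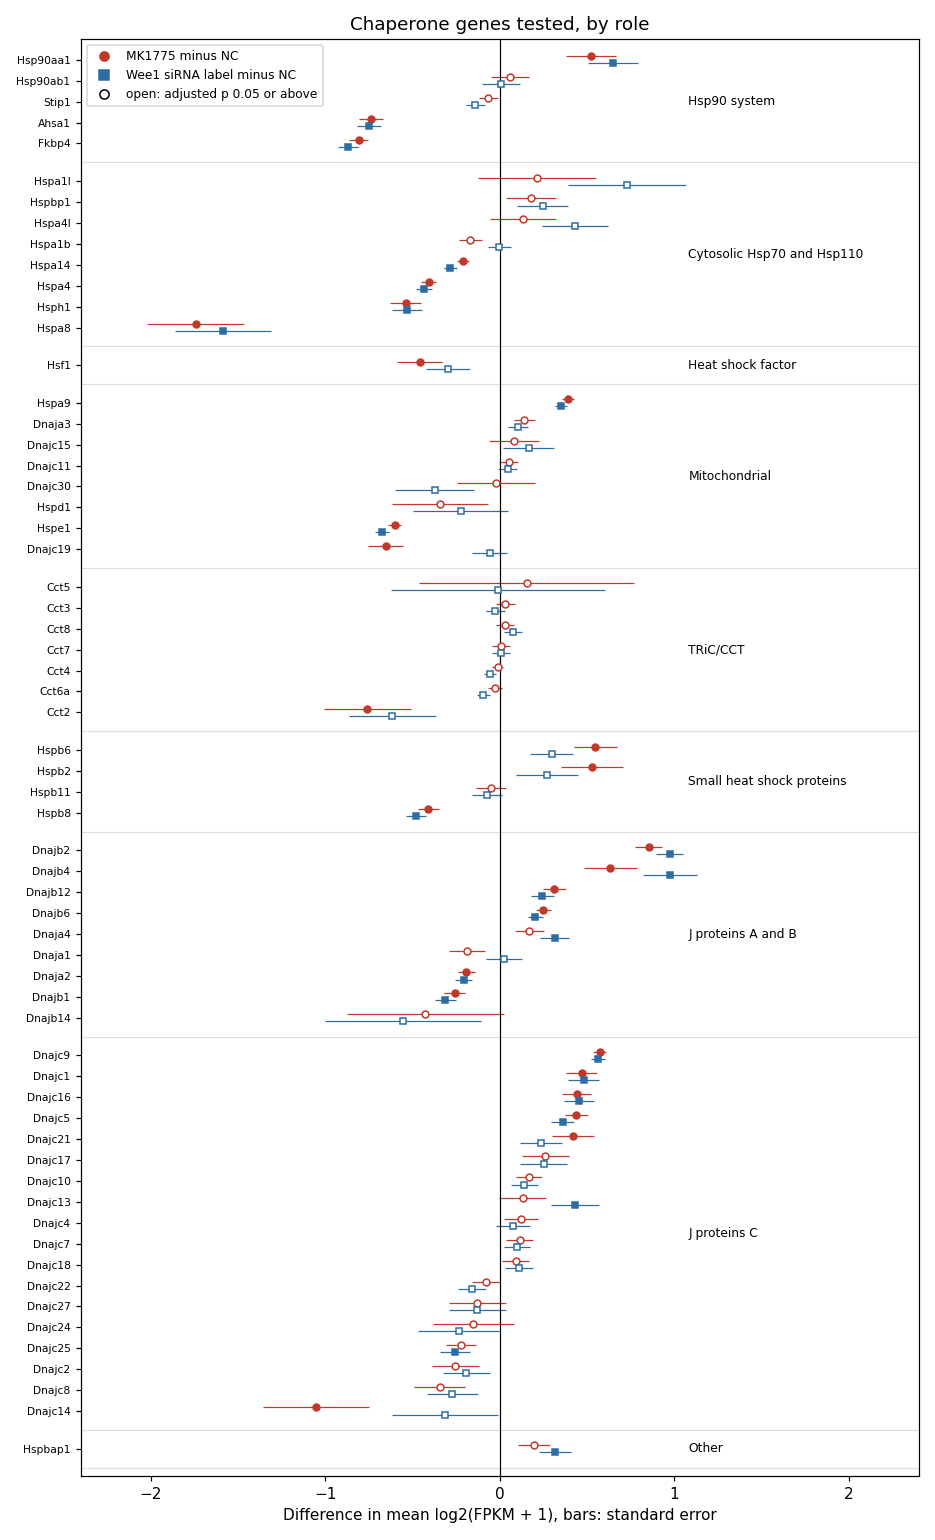
Log2 difference from NC of 61 of the 62 tested chaperone genes with MK1775 (circles) and in the libraries labelled Wee1 siRNA (squares), grouped by role; bars are standard errors from the limma fit, and open symbols are genes not called. The Hsp70/Hsp110 genes called all lie left of 0, the TRiC/CCT genes other than Cct2 and Cct5 sit close to 0, and the J proteins spread to both sides.

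On named transcripts the largest single shift of the group was in Hspa8, the constitutive cytosolic Hsp70 (Hsc70), and most of the difference in the summed level lay in it. All members summed to 4749 ± 110 FPKM with MK1775 and 4741 ± 89.4 FPKM under the siRNA label, against 5348 ± 53.9 FPKM in NC (SD, n = 3 each). Without Hspa8 the sums were 4551 ± 131, 4522 ± 117 and 4693 ± 81.8 FPKM; the MK1775 values then overlapped NC, and the siRNA-label values (4387 to 4592 FPKM) stayed below NC (4637 to 4786 FPKM). Hspa8 was the member of rank 7 by mean FPKM with MK1775 and of rank 6 under the siRNA label, against rank 2 in NC. Hsp90ab1 held rank 1 in all 3 groups.

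Promoter sequence was read from RefSeq windows (GRCm38.p6, 250 bases before a start) to show what lies upstream of some genes that moved in opposite directions. Each is given 5′ to 3′ on the gene's strand, cut to the bases outside basic exons of GENCODE M21, with matches to GAANNTTC or TTCNNGAA, a pair of adjoining heat shock units, in capitals. Hspe1 (fell in both comparisons; chr1:55088025-55088131, + strand; the stretch between the starts of Hspd1 and Hspe1, which point away from each other), Hsph1 (fell; chr5:149636339-149636586, - strand), Ahsa1 (fell; chr12:87266478-87266697, + strand) and Dnajc9 (rose; chr14:20388911-20389160, - strand) are shown beside both RefSeq starts of Dnajb4 (rose; upstream chr3:152210084-152210333 and downstream chr3:152193846-152194095, - strand). A Dnajb4 transcript with an upstream start in the deposited data was listed at 0 in every NC library. The RefSeq starts were not matched to the starts of the deposited transcripts, so the windows may not lie directly before them.
Hspe1: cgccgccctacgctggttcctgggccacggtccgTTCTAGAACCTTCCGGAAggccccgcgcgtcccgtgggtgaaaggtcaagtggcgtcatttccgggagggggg
Hsph1: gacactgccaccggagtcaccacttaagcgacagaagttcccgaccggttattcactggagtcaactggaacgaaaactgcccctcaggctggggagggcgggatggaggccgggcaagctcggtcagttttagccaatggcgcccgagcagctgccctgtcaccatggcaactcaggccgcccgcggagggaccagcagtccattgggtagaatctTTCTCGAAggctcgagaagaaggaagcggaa
Ahsa1: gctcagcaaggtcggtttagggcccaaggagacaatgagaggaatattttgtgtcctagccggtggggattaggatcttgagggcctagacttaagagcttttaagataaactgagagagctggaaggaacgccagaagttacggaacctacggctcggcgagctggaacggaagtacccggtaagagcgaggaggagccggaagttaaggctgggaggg
Dnajc9: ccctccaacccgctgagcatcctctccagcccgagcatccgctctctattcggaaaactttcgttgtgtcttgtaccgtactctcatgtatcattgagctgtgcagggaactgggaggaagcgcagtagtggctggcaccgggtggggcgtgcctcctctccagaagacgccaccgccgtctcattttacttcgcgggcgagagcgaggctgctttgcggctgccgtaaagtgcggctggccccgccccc
Dnajb4 upstream start: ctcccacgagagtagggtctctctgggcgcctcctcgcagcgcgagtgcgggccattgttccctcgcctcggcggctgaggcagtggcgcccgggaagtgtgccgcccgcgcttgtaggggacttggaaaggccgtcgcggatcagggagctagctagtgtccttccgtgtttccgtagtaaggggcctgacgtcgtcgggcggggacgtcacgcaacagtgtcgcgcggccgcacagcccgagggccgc
Dnajb4 downstream start: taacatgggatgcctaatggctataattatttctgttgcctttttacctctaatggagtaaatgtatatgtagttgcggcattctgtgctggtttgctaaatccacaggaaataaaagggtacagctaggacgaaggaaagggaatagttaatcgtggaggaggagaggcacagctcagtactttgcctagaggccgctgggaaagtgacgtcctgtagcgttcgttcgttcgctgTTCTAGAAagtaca
Between Hspd1 and Hspe1 the units ran on without a gap, giving 3 overlapping matches and also matches to the longer GAANNTTCNNGAA or TTCNNGAANNTTC. The Hsph1 window and the downstream Dnajb4 window held 1 match each, and the Ahsa1, Dnajc9 and upstream Dnajb4 windows held none. Motif shares were taken over the full 250 bases before a start, exon bases included and on both strands. The shorter motif lay in 18 of the 66 members with a window (27.3%), beside 14.5% of 27025 genes. Members without a window included Hsp90aa1, Hsp90ab1, Hspa8, Hspa9 and Hsf1. The motif lay in 4 of 12 members called lower with MK1775 and in 3 of 9 called higher. It also lay in 7 of 27 tested members without a call with MK1775 (25.9%) and in 4 of 18 below the minimum (22.2%). The longer motif lay in 3 members, beside 0.514% of all genes: Hspe1, which fell, Dnajb6, which rose, and Hspd1, which was not called. The windows printed were chosen after the values were seen, and a match is a run of letters, not a site.

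Hsf1, the factor that binds these elements, had 6.62, 7.42 and 9.04 FPKM with MK1775 and 10.1, 7.73 and 8.35 FPKM under the siRNA label, against 11.0, 11.7 and 9.96 FPKM in NC. The MK1775 values lay below NC without overlap and the siRNA-label values overlapped NC. The difference was -0.46 ± 0.127 (SE) with MK1775 (limma adjusted p = 0.0205) and -0.30 ± 0.127 under the siRNA label (limma adjusted p = 0.0956). The MK1775 call was not kept over the whole locus: summed over all its transcripts, unnamed ones included, Hsf1 had 11.6 ± 0.711, 11.7 ± 0.215 and 12.9 ± 0.628 FPKM in MK1775, siRNA-label and NC libraries, a log2 difference of -0.14 with MK1775 that was not called. Leaving out NC replicate 1, NC replicate 2, MK1775 replicate 1 or MK1775 replicate 2 also ended that call (-0.45, -0.41, -0.37 and -0.44), as did quantile normalization (-0.40) and the most abundant transcript alone (-0.40), and leaving out siRNA-label replicate 1 gave a call under the siRNA label (-0.40).

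In the Hsp90 system the cochaperones Fkbp4 and Ahsa1 fell in both comparisons, Hsp90aa1 rose in both, and Hsp90ab1 and Stip1 were not called. Fkbp4 (FKBP52; chromosome 6, 128406698 to 128415652, GRCm39), an immunophilin of steroid receptor complexes with Hsp90, had 66.7, 64.0 and 69.2 FPKM with MK1775 and 64.8, 62.3 and 64.3 FPKM under the siRNA label, against 110, 126 and 117 FPKM in NC. Ahsa1 (chromosome 12, 87313253 to 87320780), which stimulates the ATPase of Hsp90, had 45.8, 48.6 and 49.0 FPKM with MK1775 and 46.5, 50.9 and 45.2 FPKM under the siRNA label, against 77.6, 88.2 and 76.4 FPKM in NC. For both genes all 6 libraries of the treated groups lay below all 3 NC libraries with a wide gap. Fkbp4 fell by 0.81 with MK1775 (SE 0.0552, limma adjusted p = 2.19e-05) and by 0.87 under the siRNA label (limma adjusted p = 1.54e-05). Ahsa1 fell by 0.74 with MK1775 (SE 0.0694, limma adjusted p = 0.000106) and by 0.75 under the siRNA label (limma adjusted p = 9.86e-05). These falls were called under every alternative tried, leaving out each library included.

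Hsp90aa1 (chromosome 12, 110657039 to 110669162), the stress-inducible Hsp90 alpha, went the other way, with 370, 336 and 345 FPKM with MK1775 and 310, 393 and 455 FPKM under the siRNA label, against 281, 219 and 233 FPKM in NC. All treated libraries lay above NC, closest in siRNA-label replicate 1 and NC replicate 1. The log2 difference was 0.52 with MK1775 (SE 0.143, limma adjusted p = 0.0197) and 0.65 under the siRNA label (limma adjusted p = 0.00749). With MK1775 the call was lost over the whole locus (0.38, limma adjusted p = 0.0505) and in the most abundant transcript alone (0.45, limma adjusted p = 0.082). It was also lost without NC replicate 2 (0.45), NC replicate 3 (0.49) or MK1775 replicate 1 (0.48). Hsp90ab1, the constitutive Hsp90 beta and the most abundant member, had 1174, 1221 and 1191 FPKM with MK1775 and 1318, 958 and 1212 FPKM under the siRNA label, against 1066, 1209 and 1172 FPKM in NC. The groups overlapped, and the difference had a 95% interval of -0.19 to 0.31 with MK1775 and of -0.25 to 0.26 under the siRNA label. The ratio of Hsp90aa1 to Hsp90ab1 was 0.293 ± 0.02 with MK1775 and 0.340 ± 0.0931 under the siRNA label, against 0.215 ± 0.0435 in NC (SD, n = 3 each), and in siRNA-label replicate 1 (0.235) it lay within the NC range of 0.181 to 0.264. Over whole loci the ratio was 0.264 ± 0.0161 with MK1775 and 0.310 ± 0.0677 under the siRNA label, against 0.220 ± 0.0537 in NC, and both groups overlapped NC. Stip1 (Hop), which bridges Hsp70 and Hsp90, averaged 128 ± 5.00, 122 ± 4.12 and 135 ± 8.35 FPKM and differed from NC by -0.07 and -0.14 (95% intervals -0.19 to 0.06 and -0.27 to -0.02), without a call. Leaving out NC replicate 1 gave Stip1 a call under the siRNA label (-0.18), as did the whole-locus fit, where its difference was unchanged (-0.14).

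A shorter annotated transcript of Hsp90aa1 made up little of the gene and was at or near 0 in NC. ENSMUST00000021698 had 13.1, 19.0 and 23.8 FPKM with MK1775 and 35.4, 9.20 and 19.5 FPKM under the siRNA label, against 0, 1.64 and 0.056 FPKM in NC. The longer ENSMUST00000094361 had 356, 317 and 321 FPKM with MK1775 and 274, 384 and 435 FPKM under the siRNA label, against 281, 218 and 233 FPKM in NC. The treated libraries lay above NC for the shorter transcript, whereas siRNA-label replicate 1 lay below NC replicate 1 for the longer. These transcripts were chosen after their values were seen, and no test was made of them.

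The cytosolic Hsp70 and Hsp110 genes held no call upward: 4 of 8 tested members fell with MK1775 and the same number under the siRNA label, namely Hspa8, Hsph1, Hspa4 and Hspa14 in both (23.1% and 23.2% of all genes tested were lower). The class median was -0.19 with MK1775 and -0.14 under the siRNA label. Hspa8 (chromosome 9, 40712280 to 40721383) had 137, 204 and 252 FPKM with MK1775 and 157, 263 and 237 FPKM under the siRNA label, against 499, 739 and 727 FPKM in NC. Every treated library was far below every NC library. The mean was 3.31-fold lower with MK1775 (log2 difference -1.74, 95% interval -2.38 to -1.11, limma adjusted p = 0.00148) and 2.99-fold lower under the siRNA label (-1.59, 95% interval -2.22 to -0.95, limma adjusted p = 0.00227). Summed over the whole locus, which adds unnamed assembled transcripts and the small nucleolar RNA SNORD14, it had 325, 332 and 301 FPKM with MK1775 and 303, 312 and 276 FPKM under the siRNA label, against 774, 878 and 860 FPKM in NC. The replicates stood closer together on that sum, and the log2 differences were -1.39 and -1.49. Hspa8 was called under every alternative, from -1.94 to -1.39 with MK1775 and from -1.85 to -1.24 under the siRNA label.

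The named transcripts of Hspa8 did not fall alike in every library. The longer ENSMUST00000015800 had 131, 136 and 243 FPKM with MK1775 and 150, 183 and 227 FPKM under the siRNA label, against 395, 516 and 402 FPKM in NC. The shorter ENSMUST00000117557 had 0, 58.8 and 0 FPKM with MK1775 and 0, 70.4 and 0 FPKM under the siRNA label, against 88.4, 210 and 313 FPKM in NC. It was thus listed at 0 in 4 of 6 treated libraries and in no NC library, and the estimate moved between transcripts within a group. The plot of transcript pairs shows both.

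**Figure D2:**
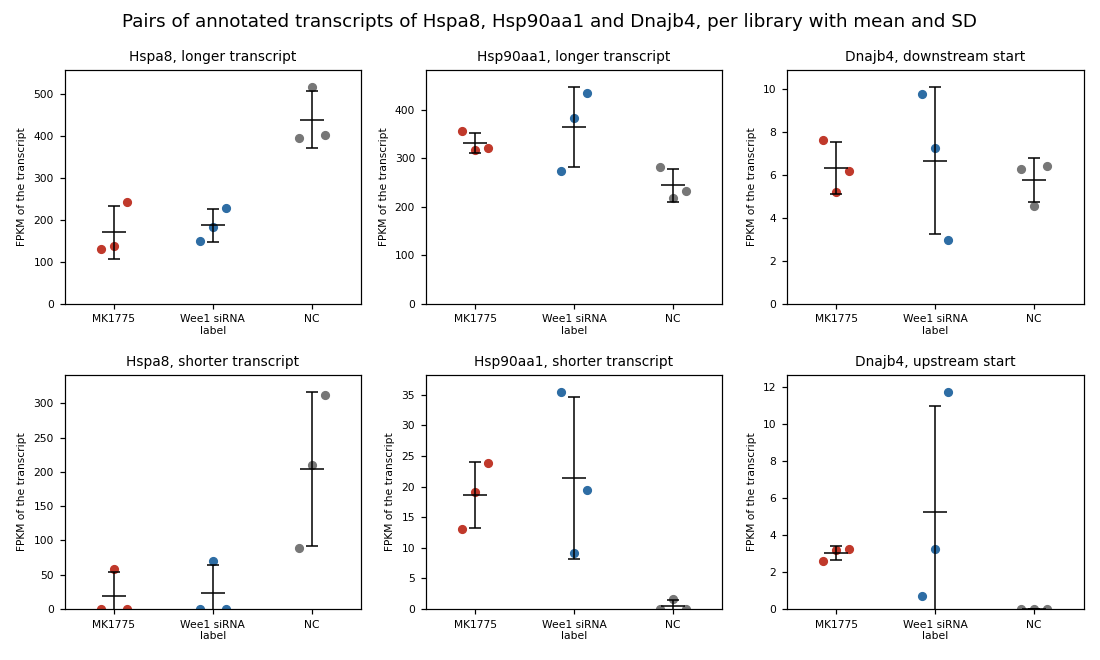
FPKM of pairs of annotated transcripts of Hspa8, Hsp90aa1 and Dnajb4 in each library (points), with mean and SD over 3 libraries (bars, cut off at 0 on the linear axis). The shorter Hspa8 transcript is at 0 in 4 of 6 treated libraries, and the shorter Hsp90aa1 and upstream Dnajb4 transcripts are at or near 0 in NC.

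The Hsp110 proteins Hsph1 and Hspa4, exchange factors that release ADP from Hsp70, fell less far. Hsph1 had 29.1, 33.7 and 34.3 FPKM with MK1775 and 31.8, 33.4 and 32.3 FPKM under the siRNA label, against 50.6, 42.1 and 50.2 FPKM in NC. Hspa4 had 76.0, 78.9 and 77.9 FPKM with MK1775 and 73.1, 75.8 and 79.8 FPKM under the siRNA label, against 107, 100 and 102 FPKM in NC. Neither gene's treated libraries overlapped NC. Hsph1 differed by -0.54 with MK1775 (limma adjusted p = 0.00158) and -0.53 under the siRNA label (limma adjusted p = 0.00164), and Hspa4 by -0.41 (limma adjusted p = 0.000241) and -0.44 (limma adjusted p = 0.000169). Taken from its most abundant transcript alone, Hsph1 was not called under the siRNA label (-0.54). Hspa14, which works with the J protein Dnajc2 at the ribosome, averaged 40.6 ± 0.833 FPKM with MK1775 and 38.6 ± 0.827 FPKM under the siRNA label, against 47.2 ± 0.261 FPKM in NC (SD, n = 3 each; limma adjusted p = 0.00231 and 0.000487). Dnajc2 itself was not called (-0.25 and -0.19). Without Hspa8 the class still summed to 170 ± 1.46 FPKM with MK1775 and 170 ± 5.74 FPKM under the siRNA label, against 216 ± 7.46 FPKM in NC, with no overlap.

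The inducible Hsp70 genes were nearly silent in all groups. Hspa1b averaged 2.52 ± 0.116 FPKM with MK1775 and 2.95 ± 0.163 FPKM under the siRNA label, against 2.96 ± 0.0634 FPKM in NC, and was not called (limma adjusted p = 0.0786 and 0.982). The whole-locus fit called it lower with MK1775 (-0.17, limma adjusted p = 0.0462). Its locus holds no other transcript, so its values were the same there and only the fit over the other genes differed. Hspa1a averaged 0.127, 0.196 and 0.111 FPKM and was below the minimum. These near copies share 63.8% of the Hspa1a and 67.6% of the Hspa1b transcript in stretches of 31 bases, so reads could have been split between them. Hspbp1 (0.18 and 0.24), Hspa4l (0.13 and 0.43) and Hspa1l (0.21 and 0.73), which were not called, had the class's differences above 0 in both comparisons. Hspa1l, best known from testis, was listed at 0 in MK1775 replicate 2, where an unnamed transcript of its locus had 1.57 FPKM.

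**Figure D3:**
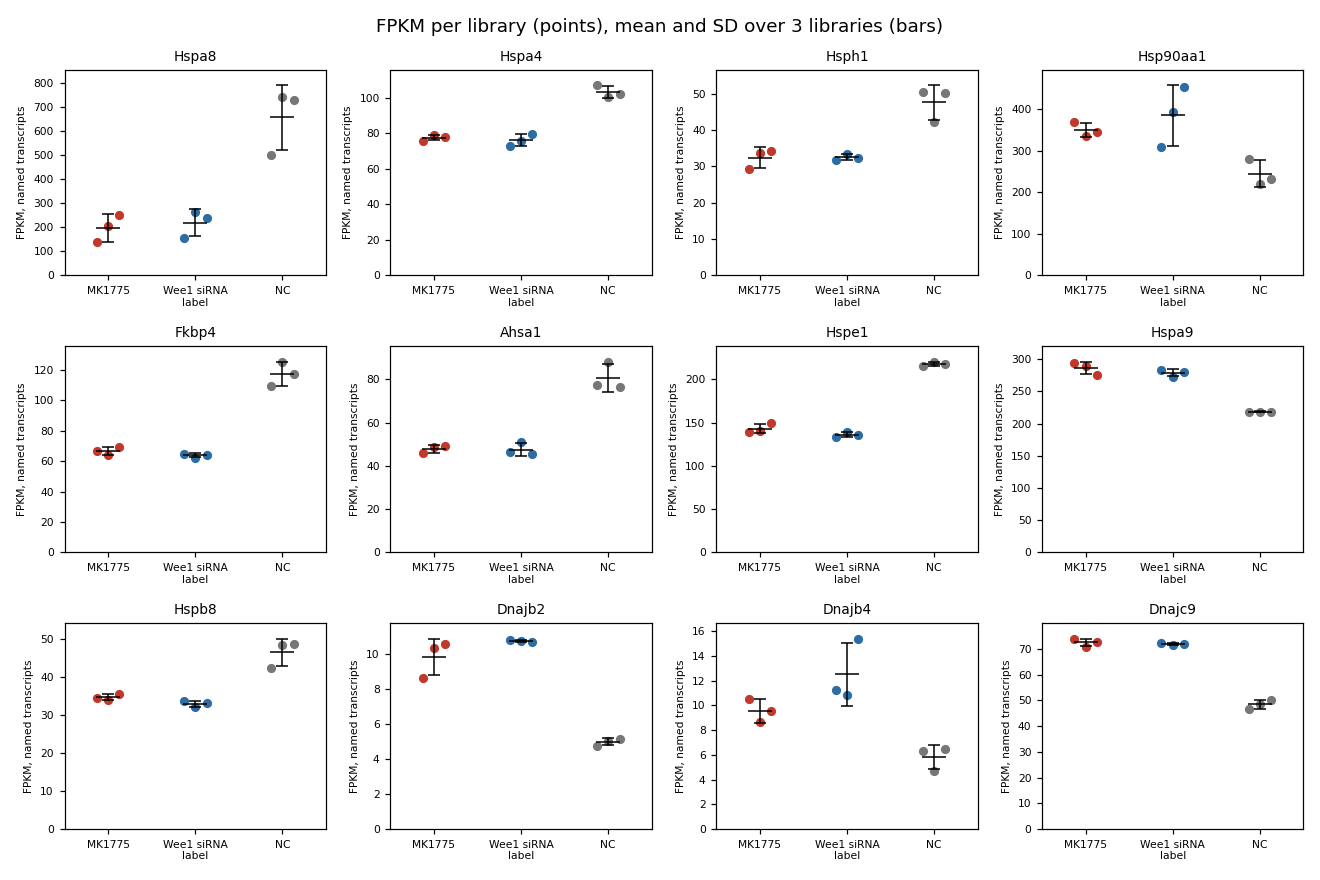
FPKM of 12 chaperone genes, as the sum of their named transcripts, in each library (points), with mean and SD over 3 libraries (bars); all axes are linear and start at 0. Hspa8, Hspa4, Hsph1, Fkbp4, Ahsa1, Hspe1 and Hspb8 are lower and Hsp90aa1, Hspa9, Dnajb2, Dnajb4 and Dnajc9 are higher in all 6 treated libraries than in the 3 NC libraries.

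Among mitochondrial chaperones the Hsp10 and Hsp70 members moved in opposite directions. Hspe1 (Hsp10, the lid of the Hsp60 folding chamber; chromosome 1, 55127291 to 55130466) had 139, 141 and 149 FPKM with MK1775 and 134, 139 and 135 FPKM under the siRNA label, against 216, 220 and 218 FPKM in NC. Hspa9 (mortalin, which pulls imported proteins into the matrix; chromosome 18, 35070467 to 35087410) had 294, 290 and 276 FPKM with MK1775 and 283, 272 and 280 FPKM under the siRNA label, against 219, 218 and 218 FPKM in NC. For each gene the replicates were tight and the groups did not overlap. Hspe1 differed by -0.60 (SE 0.0379, limma adjusted p = 1.48e-05) with MK1775 and by -0.68 (limma adjusted p = 8.18e-06) under the siRNA label. Hspa9 differed by 0.39 (SE 0.0354, limma adjusted p = 9.14e-05) and 0.35 (limma adjusted p = 0.00015). Both calls held under every alternative.

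Hspd1 (Hsp60, the partner of Hspe1 that starts on the other side of the sequence printed above) had 302, 146 and 284 FPKM with MK1775 and 274, 285 and 207 FPKM under the siRNA label, against 349, 279 and 265 FPKM in NC, with overlap and no call (-0.34 and -0.22). In the 2 lowest libraries an unnamed transcript of the locus took up the difference: it had 155 FPKM in MK1775 replicate 2 and 114 FPKM in siRNA-label replicate 3. Over the whole locus Hspd1 had 298 ± 9.26 FPKM with MK1775 and 299 ± 20.7 FPKM under the siRNA label, against 330 ± 29.8 FPKM in NC, a difference of -0.14 in each comparison that was not called. The fall of Hspe1 was thus not matched by a call in the divergent neighbour, but the difference between these genes was not tested.

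Dnajc19, a J protein of the inner-membrane import motor that acts on Hspa9, was the member whose treated groups differed most by p. It had 18.3, 20.2 and 18.0 FPKM with MK1775 and 29.7, 28.5 and 28.4 FPKM under the siRNA label, against 32.2, 33.4 and 25.4 FPKM in NC. The MK1775 libraries lay below all others, and the siRNA-label libraries lay within the NC range. It fell by 0.65 with MK1775 (limma adjusted p = 0.00122) and differed by -0.06 under the siRNA label (limma adjusted p = 0.674). Between MK1775 and the siRNA label the difference was -0.60 (95% interval -0.83 to -0.37), lower in 3 of 3 libraries, with a limma adjusted p of 0.323 over all genes. The remaining mitochondrial J proteins Dnaja3 (0.14 and 0.11), Dnajc11 (0.05 and 0.05), Dnajc15 (0.08 and 0.16) and Dnajc30 (-0.02 and -0.37) were not called.

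In the TRiC/CCT ring, which folds actin and tubulin, 1 of 7 members tested was called lower with MK1775, Cct2 (23.1% of all genes tested were lower). On named transcripts none was called under the siRNA label (23.2% of all genes were lower). On another sum of transcripts Cct5 was called as well. The subunit Tcp1, which the name rule does not take, averaged 236 ± 3.79 and 235 ± 7.33 FPKM, against 221 ± 2.76 FPKM in NC. Its groups did not overlap NC, and it was not called (0.10 and 0.09). Cct3, Cct4, Cct6a, Cct7 and Cct8 averaged 228 ± 11.3, 160 ± 2.99, 248 ± 5.37, 148 ± 2.21 and 141 ± 2.99 FPKM with MK1775 and 219 ± 6.14, 155 ± 2.79, 237 ± 6.99, 148 ± 1.02 and 145 ± 6.14 FPKM under the siRNA label, against 223 ± 13, 161 ± 1.57, 253 ± 8.12, 147 ± 10.3 and 138 ± 7.08 FPKM in NC. None of these subunits was called, with 95% intervals that lay between -0.12 and 0.16 with MK1775 and between -0.18 and 0.19 under the siRNA label. Cct6b (0.052, 0.050 and 0.0124 FPKM in MK1775, siRNA-label and NC libraries) and Cct8l1 (0.0172, 0.00829 and 0 FPKM) were below the minimum.

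Cct2 had 86.1, 62.6 and 118 FPKM with MK1775 and 92.3, 77.5 and 121 FPKM under the siRNA label, against 166, 157 and 121 FPKM in NC. It was called lower with MK1775 (-0.76, limma adjusted p = 0.0408) and not under the siRNA label (-0.62, limma adjusted p = 0.0805), and the first call ended without NC replicate 1 (-0.67), NC replicate 2 (-0.71), MK1775 replicate 1 (-0.76), MK1775 replicate 2 (-0.53) or siRNA-label replicate 1 (-0.76), while the second arose without MK1775 replicate 2 or 3 (-0.62 each). Over the whole locus the spread closed up: 159, 152 and 156 FPKM with MK1775 and 153, 147 and 154 FPKM under the siRNA label, against 243, 253 and 247 FPKM in NC. On that sum Cct2 differed by -0.67 (limma adjusted p = 5.73e-07) and -0.71 (limma adjusted p = 3.43e-07). Cct5 had 220, 161 and 104 FPKM with MK1775 and 119, 241 and 91.5 FPKM under the siRNA label, against 276, 54.1 and 179 FPKM in NC, so that its groups overlapped fully (0.15 and -0.01, no call). Its whole locus had 276, 265 and 257 FPKM with MK1775 and 264, 269 and 246 FPKM under the siRNA label, against 300, 286 and 296 FPKM in NC. There it was called lower in both comparisons (-0.15, limma adjusted p = 0.0271, and -0.18, limma adjusted p = 0.00959). The whole-locus sums were added after seeing the data.

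**Figure D4:**
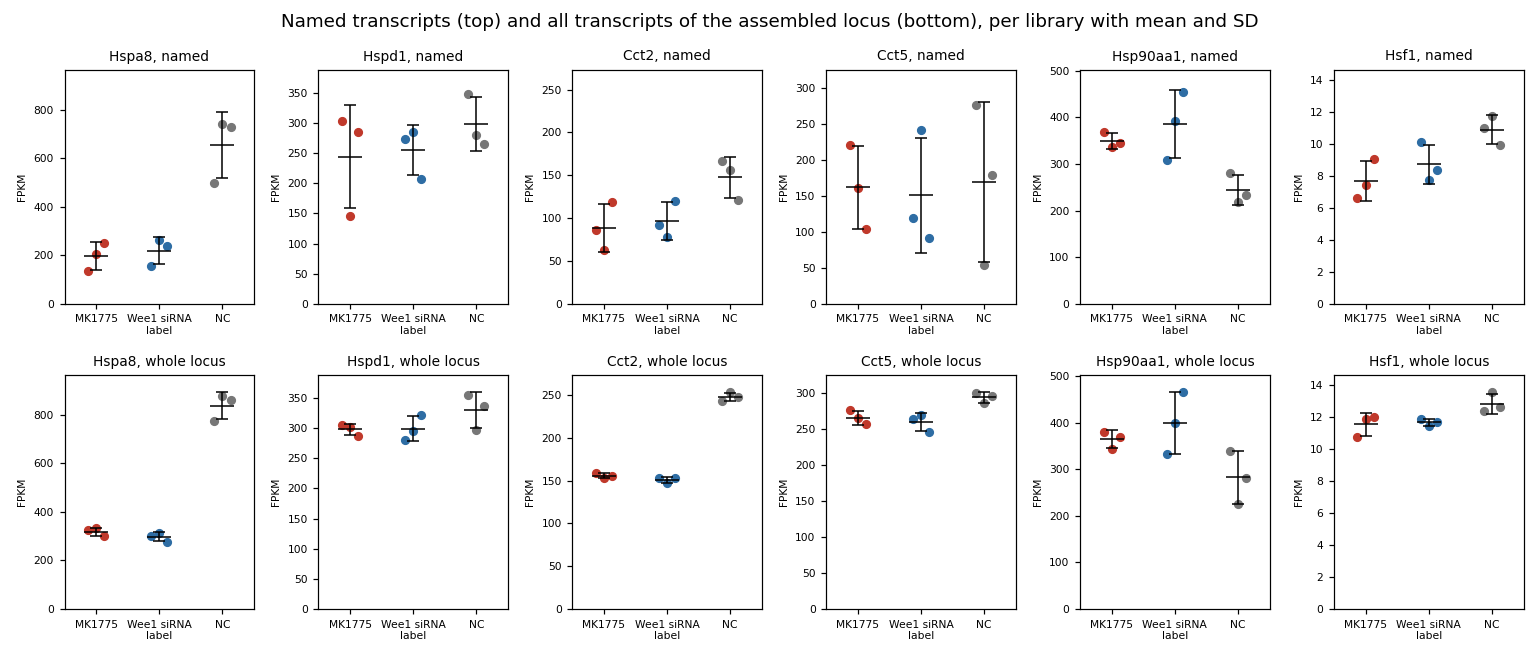
FPKM per library of 6 genes as the sum of transcripts that carry the gene's name (top row) and as the sum of all transcripts of the assembled locus (bottom row), on the same linear axis per gene; bars are mean and SD over 3 libraries. The replicates of Hspa8, Hspd1, Cct2, Cct5 and Hsf1 stand closer together in the bottom row, where Hspa8, Cct2, Cct5 and Hsf1 are lower in every treated library than in NC.

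Small heat shock proteins hold unfolded proteins in soluble assemblies. Of 8 members 4 were tested. Hspb8, the partner of Bag3 in selective autophagy, had 34.5, 34.0 and 35.7 FPKM with MK1775 and 33.7, 32.2 and 33.3 FPKM under the siRNA label, against 42.5, 48.5 and 48.8 FPKM in NC. It fell without overlap by 0.41 with MK1775 (limma adjusted p = 0.000949) and by 0.48 under the siRNA label (limma adjusted p = 0.000406). Hspb6 (Hsp20) had 5.87, 6.32 and 5.45 FPKM with MK1775 and 5.33, 5.26 and 3.88 FPKM under the siRNA label, against 3.21, 3.83 and 4.13 FPKM in NC. The MK1775 libraries lay above NC (0.55, limma adjusted p = 0.00856), whereas siRNA-label replicate 3 lay within the NC range (0.30, limma adjusted p = 0.0873; without that replicate 0.42, called). In the most abundant Hspb6 transcript alone the MK1775 difference was 0.02 and not called. Hspb2 was called higher with MK1775 at about 1 FPKM (1.40 ± 0.327 FPKM, against 0.676 ± 0.35 FPKM in NC; 0.53, limma adjusted p = 0.0427), with overlap, and the call ended without NC replicate 2 (0.40), NC replicate 3 (0.50), siRNA-label replicate 1 (0.53) or siRNA-label replicate 3 (0.53), and under quantile normalization (0.29). Over the whole locus Hspb2 was called higher with MK1775 (0.47, limma adjusted p = 0.00198) and under the siRNA label (0.36, limma adjusted p = 0.00825). Hspb11, which despite its name is a part of the intraflagellar transport machinery, was not called (-0.05 and -0.08). Hspb1 (Hsp27), a classical heat shock target, averaged 0.515, 0.525 and 0.442 FPKM and was below the minimum.

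J proteins of the A and B types deliver clients to Hsp70. Of 9 tested, 4 rose and 2 fell with MK1775, and 5 rose and 2 fell under the siRNA label (over all genes 17.9% and 19.6% were higher and 23.1% and 23.2% lower). Dnajb2, which carries ubiquitin-interacting motifs, had 8.67, 10.3 and 10.6 FPKM with MK1775 and 10.8, 10.7 and 10.7 FPKM under the siRNA label, against 4.76, 5.06 and 5.15 FPKM in NC. Dnajb4 had 10.6, 8.64 and 9.55 FPKM with MK1775 and 11.2, 10.9 and 15.4 FPKM under the siRNA label, against 6.33, 4.73 and 6.48 FPKM in NC. Both were higher in all 6 treated libraries than in any NC library. Dnajb2 differed by 0.85 (limma adjusted p = 8.92e-05) and 0.97 (limma adjusted p = 4.69e-05), and Dnajb4 by 0.63 (limma adjusted p = 0.0118) and 0.97 (limma adjusted p = 0.00141). With MK1775 most of the Dnajb4 difference lay in a transcript with an upstream start, and under the siRNA label that transcript was highest in replicate 3 and low in replicate 1. This transcript, ENSMUST00000144950, had 2.59, 3.20 and 3.26 FPKM with MK1775 and 0.705, 3.27 and 11.7 FPKM under the siRNA label, against 0 in all 3 NC libraries. The downstream ENSMUST00000050073, the most abundant, had 7.62, 5.23 and 6.19 FPKM with MK1775 and 9.79, 7.25 and 2.99 FPKM under the siRNA label, against 6.29, 4.58 and 6.45 FPKM in NC, and taken alone it was not called (0.12 and 0.08).

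Dnajb6, a suppressor of protein aggregation, rose by a small amount to 38.9 ± 1.05 FPKM with MK1775 and 37.7 ± 0.818 FPKM under the siRNA label, against 32.6 ± 1.15 FPKM in NC (0.25 and 0.20, limma adjusted p = 0.00247 and 0.00631). Dnajb12, of the ER membrane, was at 14.4 ± 0.378 and 13.7 ± 0.793 FPKM, against 11.4 ± 0.832 FPKM in NC (0.31 and 0.24, limma adjusted p = 0.00622 and 0.0181); the siRNA-label call ended without NC replicate 3 or siRNA-label replicate 1 (0.20 each), and in the most abundant transcript neither comparison was called (0.21 and 0.39). Dnaja2 and Dnajb1 (Hsp40) fell. Dnajb1 had 12.6, 13.3 and 12.9 FPKM with MK1775 and 13.2, 12.2 and 11.9 FPKM under the siRNA label, against 14.8, 16.4 and 15.7 FPKM in NC, without overlap (-0.26 and -0.31, limma adjusted p = 0.00953 and 0.00366). Quantile normalization ended its MK1775 call (-0.19) and that of Dnaja2 (-0.14). Dnaja2 differed by -0.19 and -0.21 (limma adjusted p = 0.0155 and 0.0106), and its MK1775 call ended without NC replicate 3 (-0.18) or MK1775 replicate 3 (-0.17). Dnaja1 was not called (-0.19, 95% interval -0.43 to 0.05, and 0.02, -0.22 to 0.26). Dnaja4 was called under the siRNA label alone (0.31, limma adjusted p = 0.0156; with MK1775 0.17, limma adjusted p = 0.142; quantile normalization ended the call at 0.25), and the treated groups did not differ by test (limma adjusted p = 0.867).

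J proteins of the C type join the J domain to varied partners. Of 18 tested, 5 rose and 1 fell in each comparison, where over all genes 17.9% and 19.6% were higher and 23.1% and 23.2% lower. Dnajc9, a histone chaperone that brings Hsp70 to histones H3 and H4 (chromosome 14, 20434706 to 20438978), had 74.0, 70.9 and 72.7 FPKM with MK1775 and 72.4, 71.6 and 71.9 FPKM under the siRNA label, against 46.8, 48.5 and 50.0 FPKM in NC. The replicates were tight and the groups far apart, with differences of 0.57 (SE 0.0381, limma adjusted p = 2e-05) and 0.56 (limma adjusted p = 2.12e-05). Dnajc5 (cysteine string protein, of secretory vesicles) averaged 27.3 ± 0.979 and 25.9 ± 1.37 FPKM, against 19.9 ± 1.40 FPKM in NC (0.44 and 0.36, limma adjusted p = 0.00106 and 0.00273), with no call in its most abundant transcript alone (0.86 and 0.66). Dnajc1, of the ER membrane, averaged 4.43 ± 0.229 and 4.47 ± 0.303 FPKM, against 2.93 ± 0.348 FPKM in NC (0.47 and 0.48, limma adjusted p = 0.00325 and 0.00275). Dnajc16 rose as well (0.44 and 0.46). Dnajc2, Dnajc4, Dnajc7, Dnajc8, Dnajc10, Dnajc17, Dnajc18, Dnajc22, Dnajc24 and Dnajc27 were not called in either comparison, with differences between -0.35 (Dnajc8 with MK1775) and 0.26 (Dnajc17 with MK1775). Among these Dnajc8, a protein found in spliceosomes, averaged 49.1 ± 8.80 FPKM with MK1775 and 51.5 ± 8.28 FPKM under the siRNA label, below 62.0 ± 1.68 FPKM in NC, without overlap and without a call. Of the B type, Dnajb14 was not called either (-0.43 and -0.56).

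Some C-type members, named after their values were seen, were called on named transcripts in 1 comparison and not in the other. Dnajc14 had 6.45, 3.87 and 3.42 FPKM with MK1775 and 4.56, 9.97 and 11.2 FPKM under the siRNA label, against 10.1, 10.4 and 10.3 FPKM in NC, a difference of -1.05 with MK1775 (limma adjusted p = 0.0246). That call ended without NC replicate 1 (-1.06), 2 (-1.04) or 3 (-1.06) and without MK1775 replicate 2 (-0.98) or 3 (-0.91). In its locus, which also holds Sarnp, unnamed transcripts had 17.5, 17.3 and 16.4 FPKM with MK1775 and 13.2, 0.0598 and 0.029 FPKM under the siRNA label, against 0.253, 1.55 and 2.13 FPKM in NC, so siRNA-label replicate 1 stood closer to the MK1775 libraries than to the others of its label. The whole locus, Sarnp included, was called lower with MK1775 (-1.14, limma adjusted p = 0.00143) and not under the siRNA label (-0.42). Dnajc21, a factor of ribosome maturation, was called higher with MK1775 (0.42, limma adjusted p = 0.0241; without MK1775 replicate 1 or 2, 0.40 each and not called). Under the siRNA label Dnajc13, of endosomes, was called higher (0.43, limma adjusted p = 0.0347) and Dnajc25 lower (-0.25, limma adjusted p = 0.044). The Dnajc13 call ended without NC replicate 2 (0.36), NC replicate 3 (0.45), or siRNA-label replicate 1 (0.47), 2 (0.39) or 3 (0.43). Hspbap1, which binds Hspb1, was likewise called higher under the siRNA label (0.31, limma adjusted p = 0.0243), and the call ended without NC replicate 1 (0.29) or 2 (0.31) or siRNA-label replicate 2 (0.29) or 3 (0.28), and under quantile normalization (0.15). Dnajc25, whose call ended in 8 of the 9 fits that leave out a library, ranged from -0.29 to -0.20 in them. Over whole loci Dnajc21 (0.41 and 0.37) and Dnajc13 (1.45 and 1.58) were called higher in both comparisons. Dnajc25 was called lower in both on that sum (-0.14 with MK1775 and -0.27 under the siRNA label).

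**Figure D5:**
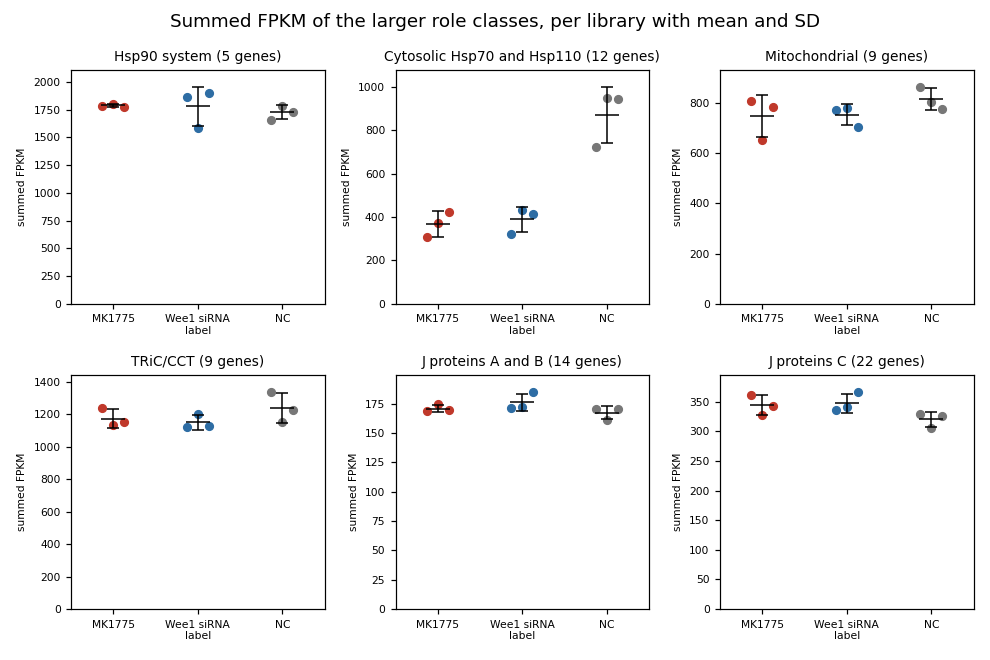
Summed FPKM of the 6 larger role classes, named transcripts only, in each library (points), with mean and SD over 3 libraries (bars), on linear axes that start at 0. The treated libraries lie below NC for cytosolic Hsp70 and Hsp110 (306 to 433 FPKM against 723 to 948 FPKM), and overlap NC in the other classes, except that the siRNA-label libraries lie above NC for both classes of J proteins.

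Summed by role, the Hsp90 system had 1789 ± 13.7 FPKM with MK1775 and 1782 ± 174 FPKM under the siRNA label, against 1727 ± 62.1 FPKM in NC (SD, n = 3 each). Mitochondrial chaperones had 748 ± 84.1 and 753 ± 41.7 FPKM, against 816 ± 43.8 FPKM in NC, and TRiC/CCT 1175 ± 55.7 and 1151 ± 46.5 FPKM, against 1240 ± 92.9 FPKM in NC. These sums of named transcripts overlapped between groups. Unnamed transcripts, which they leave out, held 3.16 to 155 FPKM per library in the Hspd1 locus. In the Cct2 locus they held 33.0 to 126 FPKM and in the Cct5 locus 24.1 to 232 FPKM. Over whole loci Cct2 and Cct5 were lower in every treated library than in NC. Whether the mitochondrial and TRiC/CCT classes differ on whole-locus sums was not tested, so the overlap does not show that they were unchanged. Cytosolic Hsp70 and Hsp110 had 368 ± 59.2 and 389 ± 59.3 FPKM, against 871 ± 129 FPKM in NC, mostly through Hspa8. Small heat shock proteins summed to 52.7 ± 1.07 and 49.3 ± 1.80 FPKM, against 62.0 ± 3.59 FPKM in NC, without overlap. J proteins of the A and B types summed to 171 ± 3.05 and 176 ± 7.57 FPKM, against 167 ± 5.31 FPKM in NC, and those of the C type to 344 ± 17 and 348 ± 16.1 FPKM, against 320 ± 12.9 FPKM in NC. All members together made up 1.42% to 1.49% of the summed FPKM with MK1775 and 1.42% to 1.47% under the siRNA label, against 1.61% to 1.65% in NC. These shares count named transcripts only. Transcripts of any gene without a name held 12.1% to 12.6% of the summed FPKM with MK1775 and 12.3% to 12.8% under the siRNA label, against 10.0% to 11.2% in NC. The part of this shift in the lower named sums and calls was not tested.

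Set against each other, MK1775 and the siRNA label gave no call among the 62 members in limma (0 higher and 0 lower; over all genes 0.00957% were higher and 0% lower). At an unadjusted p under 0.05 there were 3 members (4.84%), Dnajc19 (-0.60), Dnajc14 (-0.74) and Hspa1b (-0.17), beside 5.89% of all genes. The values of 12 members did not overlap (5.08% of all genes lay wholly higher and 6.78% wholly lower with MK1775). The members' 95% intervals reached a median of 0.20 to either side of the difference, from 0.0743 to 1.42, so the groups are not shown to be alike. For Hspa8 the difference was -0.16, with an interval of -0.79 to 0.48.

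Of 41 other chaperone and cochaperone genes, all tested, 6 rose and 6 fell with MK1775, and 7 rose and 6 fell under the siRNA label, with medians of 0.08 and 0.04. These shares were below those over all genes (17.9% and 19.6% higher, 23.1% and 23.2% lower). Txndc9, which binds TRiC, averaged 29.0 ± 1.22 and 30.1 ± 2.16 FPKM, against 16.5 ± 0.715 FPKM in NC (0.77 and 0.83, limma adjusted p = 5.86e-05 and 4.1e-05). Hsbp1, which binds the trimer domain of Hsf1, averaged 50.7 ± 1.03 and 50.7 ± 0.691 FPKM, against 35.7 ± 1.30 FPKM in NC (0.50 in each). Clpp, the mitochondrial matrix protease, fell by 0.46 and 0.50, and Ppp5c, a phosphatase held by Hsp90, fell by 0.33 and 0.38. Of the 6 ER chaperones that the name rule leaves out, Hspa5 (BiP) and Dnajb9 rose in both comparisons (0.44 and 0.32 for Hspa5, 0.34 and 0.48 for Dnajb9) and none fell. Hspa5 had 719 ± 8.69 and 659 ± 9.10 FPKM, against 530 ± 42.1 FPKM in NC, opposite in direction to its cytosolic relative Hspa8.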

How the data were processed

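The authors deposited FPKM values, 1 per transcript and library, for 158719 transcripts of 9 libraries; 17991 assembled transcripts carry no gene name, per the file headers and names. FastQC, Trim Galore, HISAT2 and StringTie with the build GRCm39 are named in the submitters' processing notes, without versions. RNA was extracted with a Qiagen kit and libraries were made with an NEB kit, per the labels' protocols; strand-aware counting is not given in the sources used here, so overlapping and antisense genes cannot be told apart. Whole reads could not be recovered from low FPKM values (25.8% to 29.1% of values within 0.1 of a whole multiple), so no count test was used and the depth is unknown; summed FPKM ran from 321551 to 332950 per library.

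Transcript FPKM were added up by gene name. Genes averaging 1 FPKM or more entered a single limma fit, on log2(FPKM + 1) with a pseudocount of 1, of 3 group means (limma 3.58.1 in R 4.3.3; eBayes with trend; two-sided; Benjamini-Hochberg over 10453 genes; threshold 0.05); the scripts were tested on simulated data. Values with ± are mean and SD over 3 libraries unless SE is written, and intervals are 95% intervals of that fit. Log2 differences are treated group minus NC. Coordinates in words are GRCm39, from the deposited table; sequences and their coordinates are GRCm38.p6, from RefSeq (66 of 82 members matched). Motifs were searched as letters on both strands. Tables were handled with pandas 2.3.3 and figures drawn with matplotlib 3.10.9.

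The members, role classes, lists and alternatives were chosen with earlier results of these data known. Named genes are fixed chaperones of each class, up to 3 members per class and comparison with the smallest adjusted p, and up to 4 of the other chaperone list; Dnajc13, Dnajc14, Dnajc16, Dnajc21, Dnajc25, Dnaja4, Dnajc2, Dnajc11, Dnajc15, Dnajc30, Dnajc8, Dnajb14, Hspbp1, Hspa4l, Hspa1l and the genes given as not called or untested were named outside that rule. Alternatives were pseudocounts of 0.1 and 0.01, no minimum, a minimum of 5 FPKM, quantile normalization, median-of-ratios scaling, eBayes without trend, a block for the replicate number, fits of 2 groups, the most abundant transcript, added unnamed transcripts and each library left out in turn. The whole-locus sum and the joint omission of 2 libraries were added after seeing the data. Values of 1 member are not reported here.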

Additional observations from a re-analysis of the deposited data

Results flagged for a closer look

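Transcripts without a gene name lie outside the main measurement, and in 2 member loci they were at 0 in all 3 NC libraries and above 0 in all 3 libraries of a treated group, a criterion chosen after the values were seen. In the Dnajc13 locus such transcripts averaged 17.6 ± 3.79 FPKM with MK1775 (15.3, 22.0 and 15.6 FPKM) and 17.7 ± 2.87 FPKM under the siRNA label (16.2, 15.9 and 21.0 FPKM), against 0 in NC. Most of it was a single assembled transcript with 32 exons. With them the whole Dnajc13 locus had 28.6 ± 1.67 and 31.2 ± 2.96 FPKM, against 9.82 ± 1.00 FPKM in NC (log2 differences 1.45 and 1.58), whereas the named transcripts alone differed by 0.13 and 0.43. In the Dnajb14 locus unnamed transcripts averaged 1.38 ± 1.19 FPKM under the siRNA label (2.20, 0.0221 and 1.94 FPKM), against 0 in NC.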

How the results depend on the processing

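The counts of members called stayed within 1.5 times their value under every alternative but the most abundant transcript, which left 7 higher with MK1775 and 8 higher under the siRNA label, against 13 in each; the cause was not tested. The whole-locus sums gave 14 higher and 20 lower with MK1775 and 16 higher and 18 lower under the siRNA label, where calls over all genes also grew, to 6932 and 7318 of 12352 from 4282 and 4474 of 10453. Leaving out each library in turn gave 10 to 14 higher and 12 to 15 lower with MK1775 and 11 to 14 higher and 11 to 13 lower under the siRNA label. No alternative called a member between MK1775 and the siRNA label. The replicate numbers of the labels did not pair the libraries (correlations of same-numbered libraries from -0.12 to 0.04; 1 of 9 correlated best with its own number), and the replicate block gave 12 higher and 13 lower with MK1775 and 12 higher and 11 lower under the siRNA label; Hsf1, Hspb2 and Dnajc14 lost their MK1775 call and Hspbap1 and Dnajc25 their siRNA-label call. Cct5 turned to -0.15 with MK1775 once unnamed transcripts of its locus were added and in the whole locus, and Hspa5 to -0.0088 under the siRNA label with its most abundant transcript. Among named genes a sign also changed between values that were not called in 22 cases with MK1775 and 45 under the siRNA label. Calls were lost in 55 and gained in 16 of 1197 gene and setting pairs with MK1775, and lost in 40 and gained in 21 of 1196 under the siRNA label. No scaling moved the median of all genes by 0.1 on the log2 scale. Depth is unknown, so the precision of low genes could not be given from counts.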
